A study of Homo sapiens with 12 samples.

Results

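The NRF2 pathway and oxidative defence genes described here are 40 of the 57773 genes in the count table, chosen by gene symbol. They are 6 regulators, 3 heme and iron genes, 11 glutathione and thioredoxin genes and 4 genes of NADPH supply. The others are 9 genes listed under quinone and carbonyl reduction, 6 conjugation and export genes and OSGIN1. The list was drawn up with earlier results of these data known, so its shares and medians beside those of all genes are descriptive. All 40 were among the 17532 genes with enough reads to be tested, and no member was lost to the filter. They were followed in A549, an established human lung adenocarcinoma cell line, after silencing of GOLM1, which encodes a Golgi membrane glycoprotein. Cells were reverse transfected with Lipofectamine RNAiMAX and 50 nM of a non-targeting siRNA (the control group), of siGOLM1-1 or of siGOLM1-2, and messenger RNA was sequenced 72 h later. Each group had 4 samples that the labels give as biological replicates. A single cell line was used, every group received siRNA and lipid, and no rescue by an siRNA-resistant GOLM1 was among the samples analysed here. The p-values therefore measure the spread between cultures of 1 line.

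NRF2, encoded by NFE2L2, is the transcription factor that switches on the oxidative defence programme. KEAP1 holds it in the cytoplasm and hands it to the proteasome until electrophiles or oxidants modify KEAP1, and stabilised NRF2 then pairs with a small MAF protein (MAFG, MAFF or MAFK) on antioxidant response elements. BACH1 is a heme-regulated repressor that competes for the same elements and is best known for keeping HMOX1 low. The targets make glutathione and recycle thioredoxin, supply NADPH, break down heme and store iron, reduce quinones and carbonyls, and conjugate and export the products. A549 cells are known to carry a KEAP1 mutation that impairs this restraint, so the programme runs high in this line before any treatment.

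The core of the antioxidant response element, TGACNNNGC, was looked for on both strands of RefSeq promoter windows on GRCh38.p14 that run from 250 bases before to 50 after each gene's start. The table held 28 of the 40 genes, and 9 of those 28 (32.1%) had the core in at least 1 window, against 4384 of 27305 genes (16.1%) over the whole table. For 5 genes whose RNA went different ways below, 1 core each is shown as a guide to the element. It is given on the strand that reads TGACNNNGC, with the core in capitals. TXNRD1 and KEAP1 each had a further core before a start, which is not shown. TXNRD1 and GCLM were higher with siGOLM1-1, KEAP1 and GPX2 were called higher with each siRNA, and ME1 was called lower with each.
TXNRD1 (chr12:104215670-104215698, plus strand): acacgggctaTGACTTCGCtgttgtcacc
GCLM (chr1:93909446-93909474, plus strand): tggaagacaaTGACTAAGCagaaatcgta
KEAP1 (chr19:10502784-10502812, plus strand): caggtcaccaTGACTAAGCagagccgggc
GPX2 (chr14:64942849-64942877, plus strand): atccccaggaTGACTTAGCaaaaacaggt
ME1 (chr6:83431170-83431198, minus strand): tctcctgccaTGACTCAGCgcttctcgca
All 5 stretches lie wholly before the start of transcription, with cores that begin 31 to 137 bases upstream of it. The ME1 stretch also holds TGANTCA, the AP-1 motif, which overlaps the core. A match describes the letters in the window and does not show that NRF2 was bound there.

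Libraries held 41617042 to 71344718 counts. GOLM1 stood at 345 to 378 CPM (a gene's counts relative to its library's total, scaled by TMM factors) in the control libraries, at 37.5 to 38.9 with siGOLM1-1 and at 44.6 to 53.4 with siGOLM1-2. It was 9.52-fold and 7.72-fold lower (adjusted p = 5.0e-12 and 1.6e-11). The epithelial markers EPCAM, KRT8, KRT18, KRT19 and CDH1 summed to 4801 to 6800 CPM in the control, 2716 to 3304 with siGOLM1-1 and 5282 to 5464 with siGOLM1-2, and CDKN2A, which A549 lacks, had 0 counts in all 12 libraries. With siGOLM1-1, KRT8 fell by 1.03 and KRT18 by 1.06 on the log2 scale (adjusted p = 1.4e-05 and 8.4e-06), while KRT19 (0.64), EPCAM (0.30) and CDH1 (0.09) were not called; with siGOLM1-2, KRT19 rose by 1.52 (adjusted p = 0.0011) and the other 4 were not called. Mitochondrially encoded transcripts took a mean of 6.28%, 4.10% and 6.01% of counts in the control, siGOLM1-1 and siGOLM1-2 groups. Summed leukocyte markers lay at 8.27 to 9.64 CPM in the control, 12.3 to 19.9 with siGOLM1-1 and 16.5 to 20.1 with siGOLM1-2, and CD14, LYZ and ITGAM were called higher with each siRNA. The pan-leukocyte marker PTPRC had 0 to 2 counts per library and CD3E 0 to 1. Summed endothelial markers lay at 0.302 to 0.741, 1.27 to 2.01 and 0.796 to 1.31 CPM in the same order, with CDH5 called higher with each siRNA, and fibroblast markers at 34.2 to 74.9, 48.9 to 93.9 and 27.3 to 40.4. Within the fibroblast list, COL3A1 and LUM were called lower with siGOLM1-1 (-1.39 and -1.69) and higher with siGOLM1-2 (1.81 and 1.06). COL1A1 was not called with siGOLM1-1 (0.53) and was lower with siGOLM1-2 (-0.85), and PDGFRB was called with neither. The control libraries fell into pairs: FKBP5, a glucocorticoid-induced gene, stood at 22.8 and 22.6 CPM in control replicates 1 and 2 and at 221 and 225 in control replicates 3 and 4. The whole list of 6 glucocorticoid-induced genes summed to 219.7 to 896 CPM in the control, 264 to 307 with siGOLM1-1 and 184 to 192 with siGOLM1-2. Within it, FKBP5 (-2.84) and SCNN1A (-2.93) were called lower with siGOLM1-1, and PER1, TSC22D3 and DUSP1 were not called. With siGOLM1-2, FKBP5 (-3.32), PER1 (-2.99), SCNN1A (-3.49) and DUSP1 (-0.76) were called lower and TSC22D3 was not called. ZBTB16 was not tested. The 4 control libraries entered the main fit as 1 group, so the split between control pairs is part of the spread its p-values measure. The part of the marker and mitochondrial differences in the results below was not tested. Where a single control pair ended or made a call among the 40 genes, its value is given.

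Silencing with siGOLM1-1 was accompanied by higher RNA of most oxidative defence genes. At an adjusted p under 0.05 over all genes tested, 30 of the 40 were called higher and 3 lower (PGD, ME1 and AKR1B10), and 7 were not called. Over all genes tested, 23.7% were called higher and 23.8% lower. The median log2 fold change of the 40 was 0.74, against -0.01 over all genes. In 33 of the 40, the 4 siGOLM1-1 libraries did not overlap the 4 control libraries, 30 of them above and 3 below, while 41% of all genes did not overlap.

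Silencing with siGOLM1-2 gave no common direction over the same genes. Of the 40, 11 were called higher, 11 lower and 18 neither, where 21.8% of all genes were called higher and 23.2% lower, so the members' shares lay close to the background. The median log2 fold change was 0.15, against -0.01 over all genes, but 0.0905 without siGOLM1-2 replicate 4 and 0.0911 against control replicates 1 and 2 alone. Libraries of the 2 groups did not overlap in 22 of the 40 genes, where 45.9% of all genes did not overlap. With library totals alone in place of TMM factors, 15 of the 40 and 4682 of all genes were called higher and 9 and 3233 lower. Against control replicates 1 and 2 alone, 11 of the 40 and 3306 of all 18198 genes were higher, and 7 and 3261 lower.

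Set directly against each other, the siRNAs differed in most of the 40 genes. With siGOLM1-1, 29 were called higher and 4 lower (GPX2, AKR1B1, AKR1B10 and ALDH3A1) than with siGOLM1-2, and 7 were not called. The background was 27.9% of all genes higher and 26.5% lower. With library totals alone, 28 of the 40 were higher and 6 lower, and 3564 of all genes were higher and 5957 lower. The median log2 difference was 0.65, against 0.01 over all genes, and 31 of the 40 did not overlap between the groups, 27 of them with siGOLM1-1 above, against 48.4% of all genes. GOLM1 itself was also lower with siGOLM1-1 than with siGOLM1-2, by 1.23-fold (adjusted p = 0.0018).

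**Figure D1:**
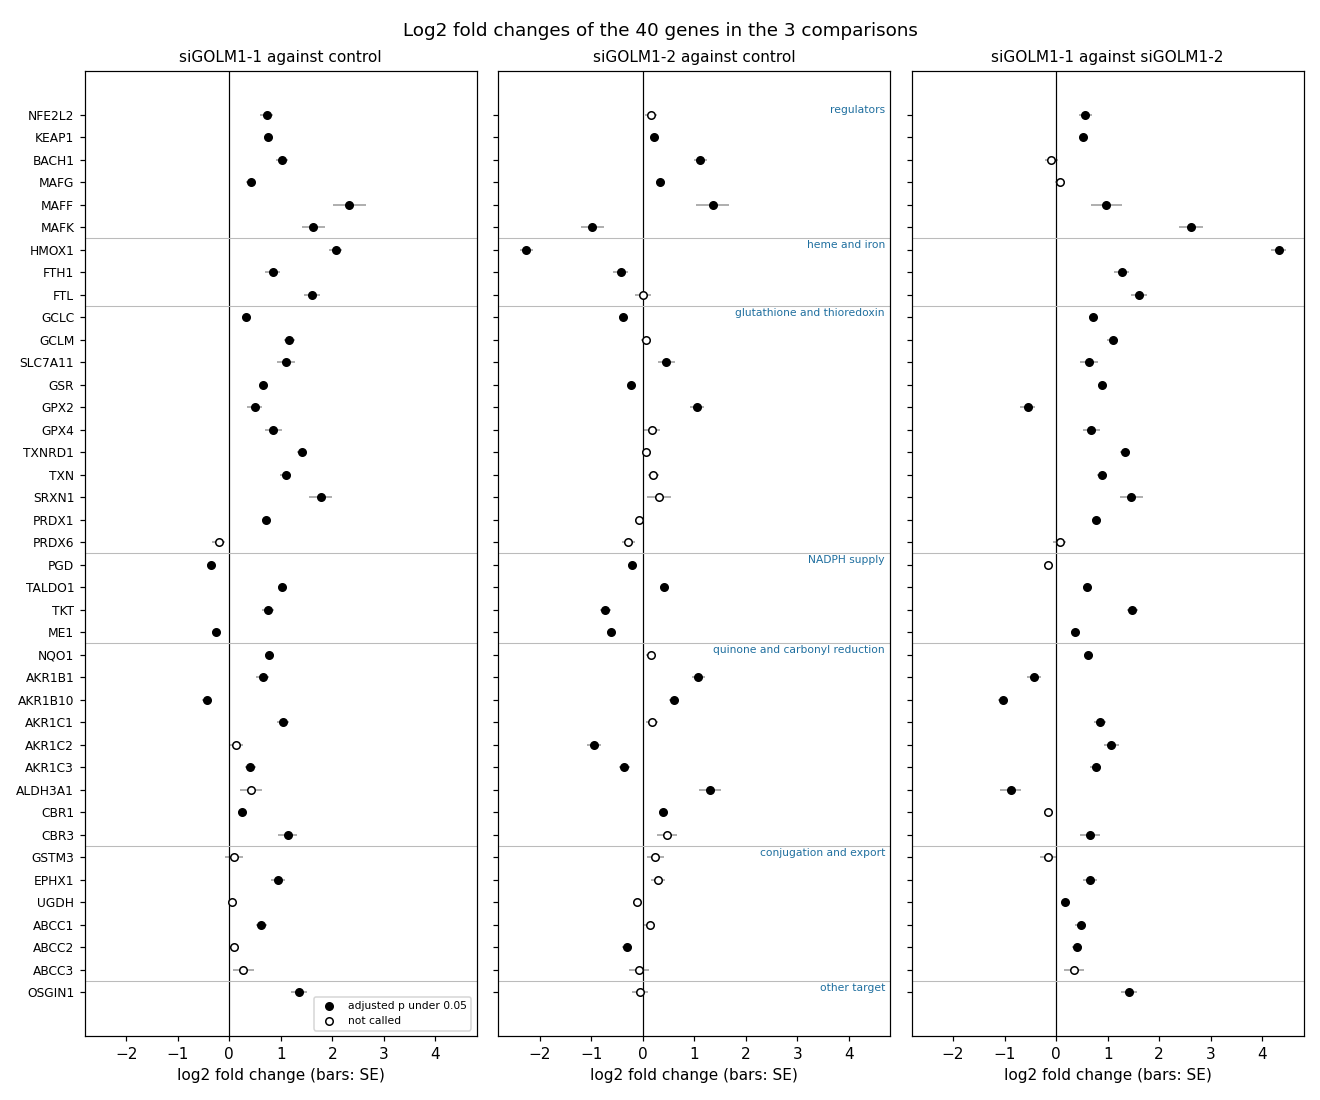
Log2 fold change of each of the 40 genes (rows, by branch) in the 3 comparisons, with bars for the standard error of the fit from 4 libraries per group and filled points for an adjusted p under 0.05. Filled points lie mostly right of 0 for siGOLM1-1 (30 higher, 3 lower), on both sides for siGOLM1-2 (11 and 11), and mostly right of 0 for the direct comparison (29 and 4).

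The regulators came first. In the siGOLM1-1 comparison all 6 were called higher, where 23.7% of all genes were higher. In the siGOLM1-2 comparison 4 were higher and 1 lower, where 21.8% of all genes were higher and 23.2% lower. NFE2L2 stood at 92.1, 88.4, 62.8 and 59.8 CPM in the control libraries, at 133, 124, 128 and 117 with siGOLM1-1 and at 83.4, 88.0, 86.8 and 80.7 with siGOLM1-2. Every siGOLM1-1 library lay above every other library, and the siGOLM1-2 libraries lay inside the control range. The log2 fold changes were 0.73 (SE 0.12, adjusted p = 0.00027) for siGOLM1-1 and 0.16 (SE 0.12, adjusted p = 0.30) for siGOLM1-2, and the siRNAs differed by 0.57 (SE 0.12, adjusted p = 0.0014). The value depends on the control pair: against control replicates 1 and 2 alone the siGOLM1-1 change was 0.48 (adjusted p = 0.00054), and against control replicates 3 and 4 alone the siGOLM1-2 change was also 0.48 and was called (adjusted p = 0.00046). With replicates 1 and 2 as the only controls, the siGOLM1-2 value was -0.09 and not called.

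KEAP1, the inhibitor, was higher with both. Its control libraries held 69.4, 68.3, 74.3 and 72.5 CPM, the siGOLM1-1 libraries 108, 128, 116 and 126, and the siGOLM1-2 libraries 82.0, 81.5, 81.2 and 87.7. The 3 groups did not overlap and stood in the order control, siGOLM1-2, siGOLM1-1. The log2 fold changes were 0.75 (SE 0.07, adjusted p = 1.1e-06) and 0.22 (SE 0.07, adjusted p = 0.014), and the second was not called against control replicates 3 and 4 alone (0.20, adjusted p = 0.086).

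BACH1, the repressor, roughly doubled with either siRNA. It held 15.6, 17.6, 18.2 and 16.9 CPM in the control, 30.9, 34.9, 42.0 and 31.1 with siGOLM1-1 and 33.3, 35.4, 33.0 and 46.2 with siGOLM1-2. Both silenced groups lay wholly above the control and overlapped each other. BACH1 was 2.03-fold higher with siGOLM1-1 (adjusted p = 1.6e-05) and 2.17-fold higher with siGOLM1-2 (adjusted p = 1.0e-05), and the log2 difference between the siRNAs was -0.09 (SE 0.12, adjusted p = 0.54).

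The 3 small MAF partners, which lack an activation domain of their own and act through what they pair with, differed from one another. MAFK stood at 104, 132, 61.6 and 64.6 CPM in the control, at 260.3, 219, 278 and 366 with siGOLM1-1 and at 50.2, 45.9, 50.1 and 37.4 with siGOLM1-2. The groups did not overlap, with the control in the middle. MAFK rose 3.11-fold with siGOLM1-1 (adjusted p = 7.6e-05), was 1.97-fold below the control with siGOLM1-2 (adjusted p = 0.0036) and was 6.12-fold higher with siGOLM1-1 than with siGOLM1-2 (adjusted p = 1.2e-06). The decrease with siGOLM1-2 was -0.98 on the log2 scale over all control libraries and -0.44 (adjusted p = 0.057) against control replicates 3 and 4 alone.

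MAFF was low, at 2.94, 3.03, 1.80 and 1.79 CPM in the control (85 to 147 counts), 7.28, 14.5, 14.3 and 12.1 with siGOLM1-1 and 4.34, 4.50, 5.13 and 10.5 with siGOLM1-2. Both silenced groups lay above the control, and siGOLM1-2 replicate 4 reached the siGOLM1-1 range. The log2 fold changes were 2.33 (SE 0.32, adjusted p = 6.6e-05) and 1.35 (SE 0.32, adjusted p = 0.0038), and the second was 1.03 (adjusted p = 0.062) against control replicates 1 and 2 alone. The siRNAs differed by 0.98 (SE 0.30, adjusted p = 0.015), which was not called without the filter on low counts (adjusted p = 0.056). MAFG, at 75.4 to 88.7 CPM in the control, rose by 0.42 (SE 0.09, adjusted p = 0.0025) with siGOLM1-1 and 0.35 (SE 0.09, adjusted p = 0.0086) with siGOLM1-2; the second was not called against control replicates 3 and 4 alone (0.30, adjusted p = 0.051).

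**Figure D2:**
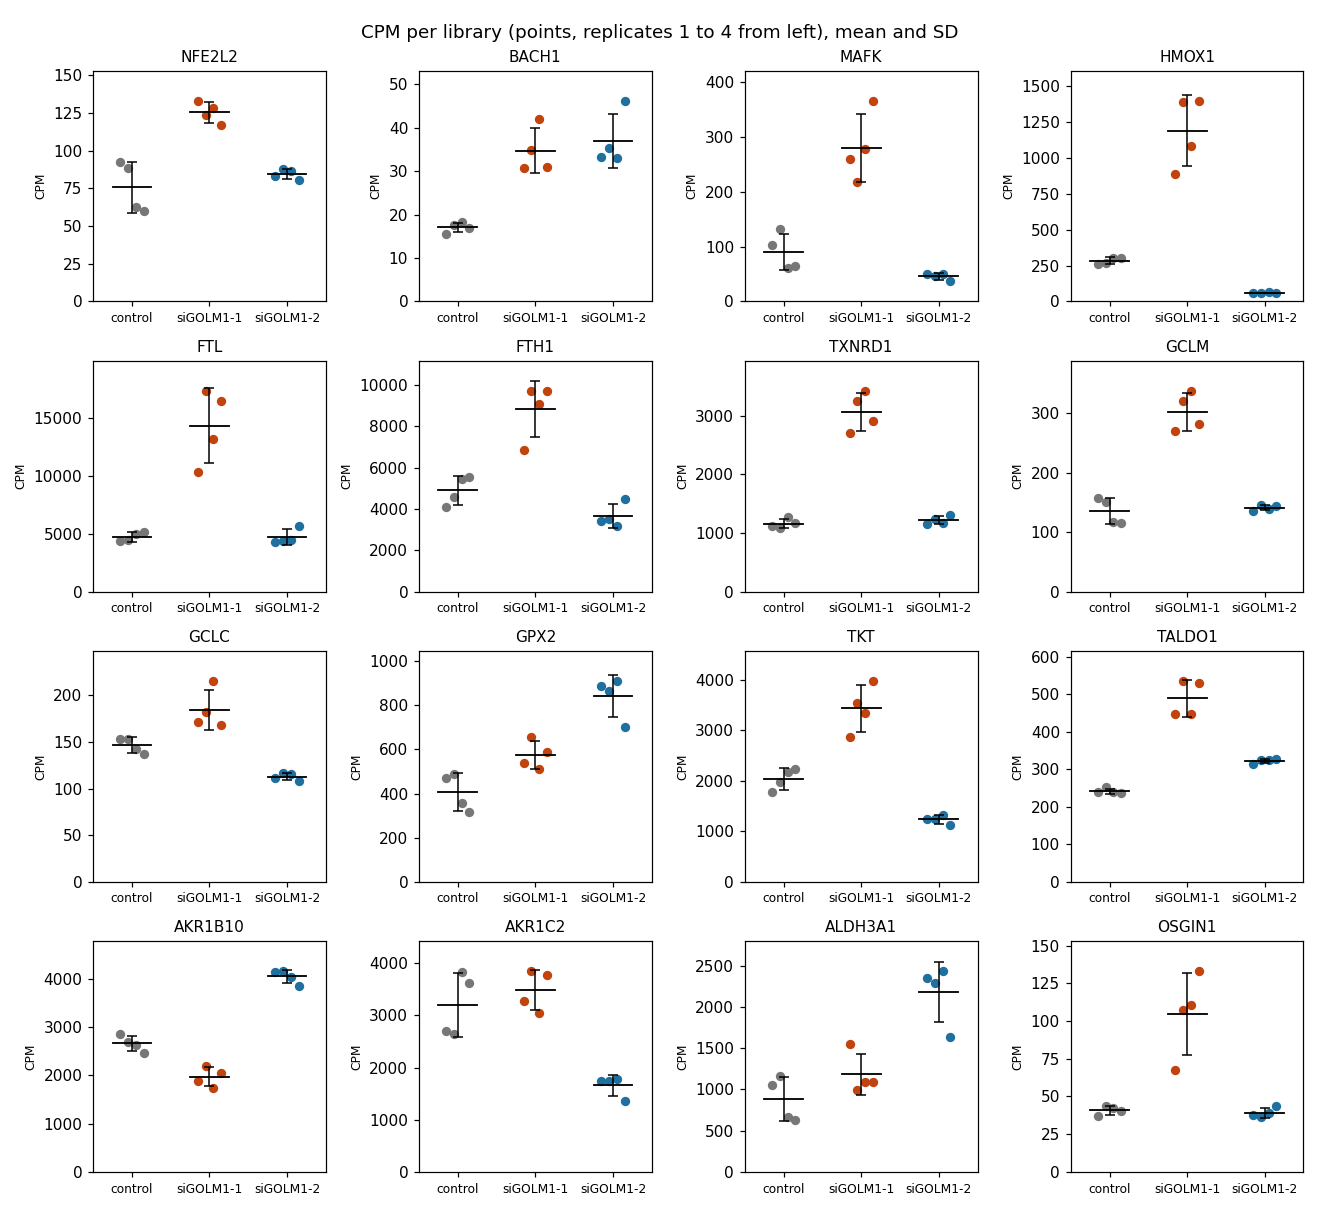
CPM (vertical axes, from 0) of 16 of the 40 genes in each library, with replicates 1 to 4 from left to right in each group and the mean and SD of the 4 libraries. The siGOLM1-1 libraries of HMOX1 (891 to 1399 CPM) lie above the control and the siGOLM1-2 libraries (56.8 to 63.1) below it, while AKR1B10 has the opposite order; the control libraries of NFE2L2, MAFK, AKR1C2 and ALDH3A1 split into replicates 1 and 2 and replicates 3 and 4.

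Heme oxygenase 1, encoded by HMOX1, cleaves heme and releases its iron, and had the widest gap between the siRNAs of the 40 genes. It stood at 259, 269, 306 and 305 CPM in the control, at 891, 1388, 1087 and 1399 with siGOLM1-1 and at 56.8, 59.5, 63.1 and 59.1 with siGOLM1-2. The groups were far apart, with all siGOLM1-1 libraries above and all siGOLM1-2 libraries below the control. With siGOLM1-1, HMOX1 rose 4.18-fold (log2 2.06, SE 0.13, adjusted p = 4.1e-08), and with siGOLM1-2 it was 4.78-fold below the control (log2 -2.26, SE 0.13, adjusted p = 5.1e-08). Between the siRNAs the log2 difference was 4.32 (SE 0.14, adjusted p = 1.1e-10), and the call and direction of all 3 comparisons held in all 21 alternative analyses.

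The ferritin chains store the iron that heme cleavage frees. The light chain gene FTL held 4345, 4441, 4966 and 5141 CPM in the control, 10322, 17366, 13194 and 16525 with siGOLM1-1 and 4318, 4363, 4499.9 and 5700.5 with siGOLM1-2. It was 3.04-fold higher with siGOLM1-1 (adjusted p = 2.4e-06), with no overlap, and the siGOLM1-2 libraries overlapped the control, with replicate 4 above it (log2 0.00, SE 0.15, adjusted p = 1.00). The heavy chain gene FTH1 held 4099, 4565, 5461 and 5534 CPM in the control, 6838, 9706, 9069.6 and 9719.7 with siGOLM1-1 and 3415, 3521, 3189 and 4486 with siGOLM1-2. Its siGOLM1-1 libraries lay above the control by 0.85 on the log2 scale (SE 0.15, adjusted p = 0.00032), and siGOLM1-2 replicate 4 overlapped the control.

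The FTH1 decrease with siGOLM1-2 (-0.43, SE 0.14, adjusted p = 0.027) was borderline. It was not called without control replicate 3 or 4, or without siGOLM1-2 replicate 1, 2 or 3, where it ranged from -0.41 to -0.37 (adjusted p = 0.065 to 0.079), nor against control replicates 1 and 2 alone (-0.25, adjusted p = 0.25). Both ferritin genes have processed pseudogenes that can take part of their reads, as do TXN and PRDX1, so their levels are less certain than those of single-copy genes. In bulk RNA, fewer cells that express a gene and less RNA per cell cannot be told apart, here and in every comparison below.

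Glutathione synthesis begins with cystine import and the ligation of glutamate to cysteine. SLC7A11, the cystine–glutamate exchanger subunit, stood at 127, 112, 70.9 and 74.0 CPM in the control, at 234, 201, 217 and 169 with siGOLM1-1 and at 123, 133, 147 and 125 with siGOLM1-2. The siGOLM1-1 libraries lay above all others, while siGOLM1-2 replicates 1 and 4 fell below control replicate 1. The log2 fold change was 1.10 (SE 0.17, adjusted p = 0.00018) with siGOLM1-1 and 0.46 (SE 0.17, adjusted p = 0.041) with siGOLM1-2. The siGOLM1-2 call ended in 11 of 21 alternatives, among them leaving out control replicate 3 or 4, siGOLM1-1 replicate 2 or 3 or any 1 siGOLM1-2 library (0.34 to 0.50). With control replicates 1 and 2 as the only controls it was 0.14, and with replicates 3 and 4 it was 0.88.

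Glutamate–cysteine ligase has a modifier subunit, GCLM, and a catalytic subunit, GCLC. GCLM held 157, 151, 117 and 115 CPM in the control, 269, 320.4, 338 and 282 with siGOLM1-1 and 136, 146, 139.5 and 144 with siGOLM1-2. All siGOLM1-1 libraries lay above the others. GCLM rose by 1.16 (SE 0.11, adjusted p = 1.4e-06) with siGOLM1-1 and was at 0.06 (SE 0.11, adjusted p = 0.65) with siGOLM1-2, and the siRNAs differed by 1.10 (SE 0.11, adjusted p = 1.5e-06). Against control replicates 3 and 4 alone, the siGOLM1-2 change of GCLM was 0.30 and was called (adjusted p = 0.026), and with replicates 1 and 2 as the only controls it was -0.13 and not called. GCLC held 154, 153, 143 and 137 CPM in the control, 172, 183, 215 and 168 with siGOLM1-1 and 111, 117, 115 and 108 with siGOLM1-2. The catalytic subunit thus moved in opposite directions, without overlap, by 0.33 (SE 0.08, adjusted p = 0.0038) and -0.38 (SE 0.08, adjusted p = 0.0017).

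Glutathione reductase, GSR, regenerates glutathione with NADPH. It held 299, 319, 319 and 306 CPM in the control, 454, 516, 490.3 and 505 with siGOLM1-1 and 266, 270.3, 261 and 269.7 with siGOLM1-2. It rose by 0.66 (SE 0.06, adjusted p = 1.5e-06) with siGOLM1-1 and fell by 0.22 (SE 0.06, adjusted p = 0.0094) with siGOLM1-2, with no overlap in either comparison. With library totals alone in place of TMM factors, the second value was -0.14 (adjusted p = 0.040).

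The glutathione peroxidases did not share a pattern. GPX2, which is strongly expressed in epithelia, held 468, 490.2, 356 and 314 CPM in the control, 536, 654, 510.5 and 591 with siGOLM1-1 and 889, 866, 910.0 and 703 with siGOLM1-2. The 3 groups did not overlap and siGOLM1-2 stood highest, so GPX2 went against the direction of most of the 40 genes in the direct comparison (-0.56, SE 0.14, adjusted p = 0.0039). Its rise was 1.05 (SE 0.14, adjusted p = 4.7e-05) with siGOLM1-2 and 0.49 (SE 0.14, adjusted p = 0.0097) with siGOLM1-1, and the latter fell to 0.26 (adjusted p = 0.11) with control replicates 1 and 2 as the only controls and reached 0.79 with replicates 3 and 4.

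GPX4, which reduces lipid peroxides and restrains ferroptosis, held 89.8, 96.4, 135 and 138 CPM in the control, 162, 248, 198 and 221 with siGOLM1-1 and 122, 123, 114 and 159 with siGOLM1-2. All siGOLM1-1 libraries lay above the control (0.85, SE 0.17, adjusted p = 0.00091), and the siGOLM1-2 libraries overlapped it (0.17, SE 0.16, adjusted p = 0.42). Against control replicates 1 and 2 alone the siGOLM1-2 change was 0.47 and was called (adjusted p = 0.039), and with replicates 3 and 4 as the only controls it was -0.06 and not called.

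In the thioredoxin arm, the reductase TXNRD1 held 1116, 1089, 1264 and 1174 CPM in the control, 2706, 3249.6, 3422 and 2907 with siGOLM1-1 and 1157, 1245, 1167 and 1305 with siGOLM1-2. It was 2.65-fold higher with siGOLM1-1 (adjusted p = 6.1e-08), and the siGOLM1-2 libraries overlapped the control (0.07, SE 0.09, adjusted p = 0.55). Thioredoxin itself, TXN, held 328, 314, 343 and 336 CPM in the control, 586, 855, 678 and 707 with siGOLM1-1 and 369, 375, 359 and 426 with siGOLM1-2. Its rise was 1.10 (SE 0.10, adjusted p = 1.5e-06) with siGOLM1-1. With siGOLM1-2 all 4 libraries lay above the control, but the difference of 0.21 (SE 0.10, adjusted p = 0.11) was not called; it was called without siGOLM1-1 replicate 2 (0.21, adjusted p = 0.048), which enters through the shared estimate of the spread, and with library totals alone (0.29, adjusted p = 0.019).

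Sulfiredoxin, SRXN1, repairs over-oxidised peroxiredoxins and was low, at 2.72, 2.60, 1.38 and 2.15 CPM in the control (65 to 136 counts), 5.13, 8.92, 8.41 and 7.90 with siGOLM1-1 and 3.17, 3.08, 2.04 and 2.76 with siGOLM1-2. The siGOLM1-1 libraries stood clear of the control, at 3.43-fold (adjusted p = 2.6e-05), and the siGOLM1-2 libraries overlapped it (log2 0.32, SE 0.23, adjusted p = 0.27). The siRNAs differed in SRXN1 by 1.45 (SE 0.22, adjusted p = 8.8e-05). PRDX1, a peroxiredoxin that thioredoxin recycles, rose by 0.71 (SE 0.08, adjusted p = 1.2e-05) from 778 to 898 CPM in the control to 1229.5 to 1533 with siGOLM1-1, and stood at 755 to 843 with siGOLM1-2. PRDX6, a peroxiredoxin that uses glutathione, held 185, 193, 272 and 270.5 CPM in the control and overlapped it with both siRNAs (-0.20, adjusted p = 0.20, and -0.28, adjusted p = 0.090). PRDX6 was called lower with siGOLM1-2 without control replicate 1 (-0.37, adjusted p = 0.024) or siGOLM1-2 replicate 4 (-0.36, adjusted p = 0.039), and with either siRNA against control replicates 3 and 4 alone (-0.43 with siGOLM1-1, adjusted p = 0.0035, and -0.50 with siGOLM1-2, adjusted p = 0.0014). With control replicates 1 and 2 as the only controls, its values were 0.08 and 0.01 and were not called.

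Over the 11 glutathione and thioredoxin genes, 10 were called higher and none lower with siGOLM1-1 (median log2 fold change 0.85), against 2 higher and 2 lower with siGOLM1-2 (median 0.07). The shares of all genes were 23.7% higher and 23.8% lower with siGOLM1-1, and 21.8% higher and 23.2% lower with siGOLM1-2. The siGOLM1-2 shares of this branch, 18.18% in each direction, lay near those. Between the siRNAs, 9 were called higher with siGOLM1-1 and 1, GPX2, lower (median 0.78). Of all genes, 27.9% were higher and 26.5% lower between the siRNAs.

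**Figure D3:**
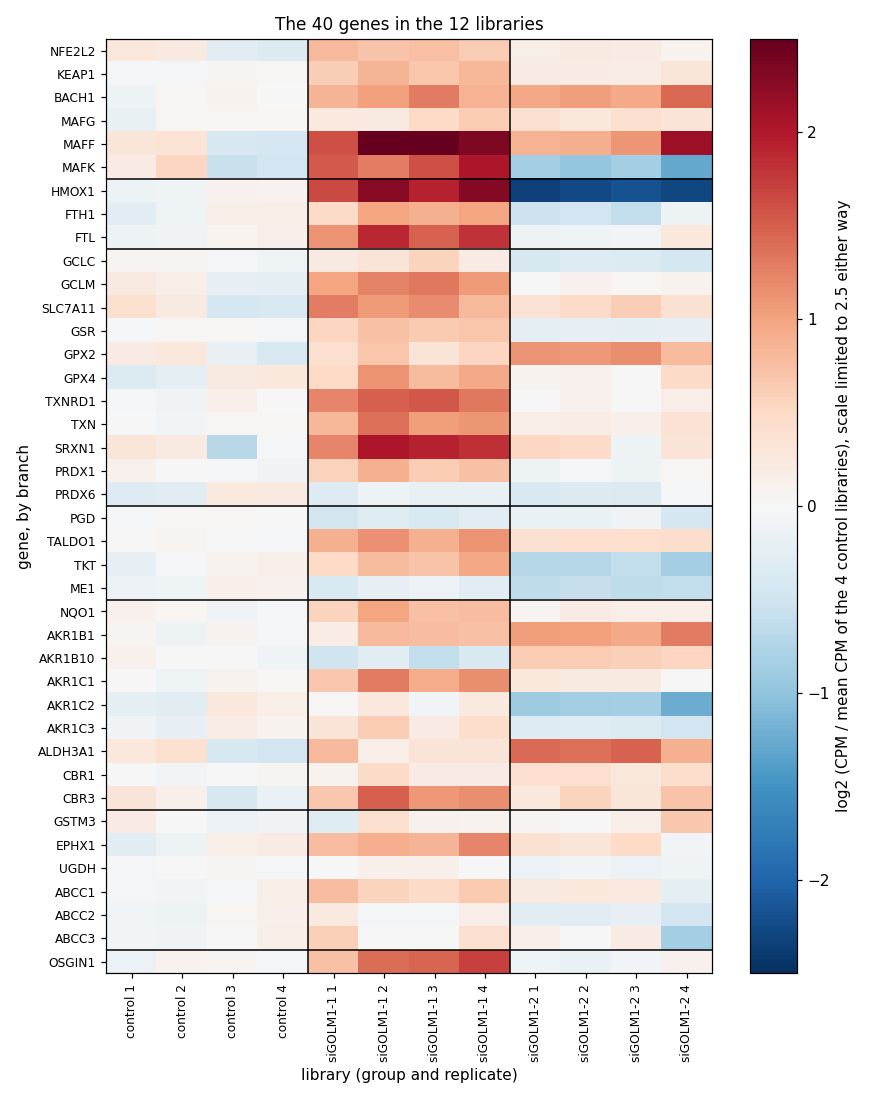
Each of the 40 genes (rows, by branch) in each of the 12 libraries (columns), coloured by the log2 ratio of its CPM to the mean CPM of the 4 control libraries, with the colours limited to 2.5 either way. The block of siGOLM1-1 columns is red for most rows, the siGOLM1-2 columns are mixed, with HMOX1 darkest blue and GPX2 and ALDH3A1 red, and siGOLM1-2 replicate 4 differs from its group in rows such as MAFF, AKR1C2 and ABCC3.

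NADPH, the reductant that both arms consume, comes largely from the pentose phosphate pathway and malic enzyme. Its 4 genes split with siGOLM1-1 into 2 higher and 2 lower, and with siGOLM1-2 into 1 higher and 3 lower. Of all genes, 23.7% were higher and 23.8% lower with siGOLM1-1, and 21.8% higher and 23.2% lower with siGOLM1-2. TKT, transketolase of the non-oxidative branch, held 1774, 1969.5, 2179 and 2235 CPM in the control, 2878, 3545, 3342 and 3979.6 with siGOLM1-1 and 1242, 1243, 1323 and 1129 with siGOLM1-2. The groups did not overlap, and TKT went in opposite directions by 0.75 (SE 0.11, adjusted p = 7.1e-05) and -0.72 (SE 0.11, adjusted p = 0.00011). TALDO1, transaldolase of the same branch, held 238, 252, 240.0 and 235 CPM in the control, 446, 535, 447 and 529 with siGOLM1-1 and 314, 324, 324 and 327 with siGOLM1-2. It rose with both, by 1.02 (SE 0.07, adjusted p = 1.6e-07) and 0.42 (SE 0.07, adjusted p = 0.00043), and the siRNAs differed by 0.60 (SE 0.07, adjusted p = 1.1e-05).

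PGD, which makes NADPH in the oxidative branch, held 1266, 1336, 1329 and 1304 CPM in the control, 951, 1063, 1001 and 1069 with siGOLM1-1 and 1164, 1160.2, 1231 and 972 with siGOLM1-2. All silenced libraries lay below the control. PGD fell by 0.36 (SE 0.08, adjusted p = 0.0025) with siGOLM1-1. The siGOLM1-2 value of -0.21 (adjusted p = 0.049) sat at the threshold: it was called in only 4 of 21 alternatives and ended without any 1 control library, siGOLM1-1 replicate 3 or 4, or siGOLM1-2 replicate 1, 2 or 4 (-0.23 to -0.14), and against either control pair alone (-0.20 in each). Between the siRNAs PGD differed by -0.15 (adjusted p = 0.14), and by -0.21 (adjusted p = 0.023) without siGOLM1-2 replicate 4. With library totals alone that difference was -0.28 and was called (adjusted p = 0.0078).

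ME1, cytosolic malic enzyme, held 168, 172, 202 and 198 CPM in the control, 141, 161, 166 and 151 with siGOLM1-1 and 119, 124, 119 and 121 with siGOLM1-2. The 3 groups did not overlap and siGOLM1-2 stood lowest. ME1 fell by 0.62 (SE 0.08, adjusted p = 2.5e-05) with siGOLM1-2 and by 0.26 (SE 0.08, adjusted p = 0.013) with siGOLM1-1, the latter at -0.13 (adjusted p = 0.21) against control replicates 1 and 2 alone. The difference between the siRNAs was 0.36 (SE 0.08, adjusted p = 0.0012) with TMM factors and 0.23 (adjusted p = 0.0083) with library totals alone.

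Among the genes listed under quinone and carbonyl reduction, 6 of 9 were called higher and 1 lower with siGOLM1-1, and 4 higher and 2 lower with siGOLM1-2. The shares of all genes were 23.7% and 23.8% with siGOLM1-1, and 21.8% and 23.2% with siGOLM1-2. NQO1, the quinone reductase most used as a readout of NRF2, held 1285, 1236, 1127 and 1152 CPM in the control, 1777, 2381, 2007 and 2059 with siGOLM1-1 and 1265, 1377, 1344 and 1349.6 with siGOLM1-2. It was higher with siGOLM1-1 by 0.78 (SE 0.09, adjusted p = 1.2e-05), and the siGOLM1-2 libraries overlapped the control at replicate 1 (0.15, SE 0.09, adjusted p = 0.19). With library totals alone the siGOLM1-2 value was 0.23 and was called (adjusted p = 0.045).

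The aldo-keto reductases reduce aldehydes and ketones, and the B and C subfamilies did not move as one. AKR1B10 held 2854, 2686, 2632 and 2469 CPM in the control, 1887, 2198, 1737 and 2052 with siGOLM1-1 and 4144, 4155, 4042 and 3853 with siGOLM1-2. It had the reverse order of HMOX1, lower with siGOLM1-1 (-0.43, SE 0.09, adjusted p = 0.0011), higher with siGOLM1-2 (0.61, SE 0.09, adjusted p = 9.1e-05), and the siGOLM1-1 libraries stood 2.06-fold below the siGOLM1-2 libraries (adjusted p = 4.1e-07). AKR1B1, aldose reductase, held 2570.4, 2246, 2619.6 and 2386 CPM in the control, 2808, 4309, 4187 and 4068 with siGOLM1-1 and 5036, 4974, 4725 and 6018 with siGOLM1-2. It rose by 0.65 (SE 0.13, adjusted p = 0.0011) and 1.08 (SE 0.13, adjusted p = 2.1e-05), with siGOLM1-2 above siGOLM1-1 in every library.

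AKR1C1, AKR1C2 and AKR1C3 are close paralogs in 1 gene cluster, and reads shared between them may be split unevenly, so each is less certain than a single-copy gene. AKR1C1 held 666, 626, 716 and 688 CPM in the control, 1073, 1659, 1288 and 1510.1 with siGOLM1-1 and 811, 791, 792 and 677 with siGOLM1-2. Its rise of 1.04 (SE 0.12, adjusted p = 9.6e-06) with siGOLM1-1 was free of overlap, and its siGOLM1-2 value was 0.19 (adjusted p = 0.21). AKR1C2 held 2702, 2651, 3839 and 3612 CPM in the control, 3281, 3848, 3055 and 3771 with siGOLM1-1 and 1737, 1751, 1787 and 1358 with siGOLM1-2. The siGOLM1-2 libraries lay below all others (-0.95, SE 0.14, adjusted p = 0.00010), and the siGOLM1-1 libraries overlapped the control (0.12, adjusted p = 0.48), though against control replicates 1 and 2 alone the siGOLM1-1 value was 0.38 and was called (adjusted p = 0.034), and with replicates 3 and 4 it was -0.08 and not called. AKR1C3 rose by 0.41 (SE 0.11, adjusted p = 0.0063) with siGOLM1-1 and fell by 0.36 (SE 0.11, adjusted p = 0.015) with siGOLM1-2. The AKR1C3 rise was 0.29 (adjusted p = 0.063) against control replicates 3 and 4 alone, and its decrease -0.21 (adjusted p = 0.17) against control replicates 1 and 2 alone.

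ALDH3A1, which oxidises aldehydes, held 1058, 1156, 666 and 632 CPM in the control, 1549, 985, 1090.5 and 1092 with siGOLM1-1 and 2355, 2293, 2431 and 1633 with siGOLM1-2. The siGOLM1-2 libraries lay above all others, at 1.31 (SE 0.21, adjusted p = 0.00028), and the siGOLM1-1 libraries overlapped control replicates 1 and 2 (0.43, SE 0.21, adjusted p = 0.11). The siGOLM1-1 value was called without control replicate 2 (0.60, adjusted p = 0.035) and against control replicates 3 and 4 alone (0.87, adjusted p = 0.0029), and was 0.09 with replicates 1 and 2 as the only controls. It was 0.88 lower on the log2 scale with siGOLM1-1 than with siGOLM1-2 (-0.88, SE 0.21, adjusted p = 0.0031), a difference that uses no control library in its contrast.

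The carbonyl reductases CBR1 and CBR3 are neighbouring paralogs. CBR1 stood at 113 to 124 CPM in the control, 126 to 165 with siGOLM1-1 and 145 to 161 with siGOLM1-2, and rose by 0.25 (SE 0.08, adjusted p = 0.021) and 0.40 (SE 0.08, adjusted p = 0.0012). The siGOLM1-1 call rested on replicate 2, without which the value was 0.16 (adjusted p = 0.064). It was 0.22 (adjusted p = 0.11) against control replicates 3 and 4 alone. Without siGOLM1-1 replicate 2 the direct difference, -0.15 (adjusted p = 0.13), was -0.23 and was called (adjusted p = 0.012). With library totals alone the direct difference was -0.28 and was also called (adjusted p = 0.0047). CBR3, at 2.202 to 3.62 CPM in the control and 4.65 to 8.11 with siGOLM1-1, rose by 1.13 (SE 0.19, adjusted p = 0.00028). Its siGOLM1-2 libraries (3.49 to 4.77) overlapped the control, with a log2 fold change of 0.47 (adjusted p = 0.059) that was called in 7 of 21 alternatives, among them leaving out control replicate 1 (0.60, adjusted p = 0.029) or siGOLM1-1 replicate 1 or 2 (0.47 in each, adjusted p = 0.036 and 0.049). For CBR3 with siGOLM1-2, control replicates 3 and 4 alone gave 0.76 (adjusted p = 0.017) and replicates 1 and 2 gave 0.24, which was not called.

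Of the 6 conjugation and export genes, 2 were called higher and none lower with siGOLM1-1, where 23.7% of all genes were higher, and 1 was lower and none higher with siGOLM1-2, where 23.2% of all genes were lower. EPHX1, microsomal epoxide hydrolase, held 270.4, 301, 365 and 381 CPM in the control, 562, 617, 596 and 766 with siGOLM1-1 and 428, 405, 462 and 315 with siGOLM1-2. It rose by 0.95 (SE 0.14, adjusted p = 8.7e-05) with siGOLM1-1. The siGOLM1-2 value of 0.29 (adjusted p = 0.10) was called without siGOLM1-2 replicate 4 (0.39, adjusted p = 0.027), which alone lay among the control libraries, and against control replicates 1 and 2 alone (0.49, adjusted p = 0.024). With library totals alone the siGOLM1-2 value was 0.37 and was called (adjusted p = 0.035).

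ABCC1, ABCC2 and ABCC3 encode multidrug resistance proteins that pump glutathione and glucuronide conjugates out of cells. ABCC1 held 419.8, 415, 420.1 and 477 CPM in the control, 741, 635, 602 and 683 with siGOLM1-1 and 506, 518, 511 and 372 with siGOLM1-2. It rose by 0.62 (SE 0.11, adjusted p = 0.00032) with siGOLM1-1; its siGOLM1-2 value of 0.14 (adjusted p = 0.31) was 0.24 and was called without siGOLM1-2 replicate 4 (adjusted p = 0.034). ABCC2 held 661, 633, 718 and 754 CPM in the control, 823, 681, 679 and 776 with siGOLM1-1 and 566, 569.8, 604 and 498 with siGOLM1-2. It fell by 0.31 (SE 0.09, adjusted p = 0.013) with siGOLM1-2, although that was -0.21 (adjusted p = 0.13) against control replicates 1 and 2 alone and -0.23 (adjusted p = 0.059) with library totals alone, and its siGOLM1-1 value was 0.10 (adjusted p = 0.39).

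ABCC3 was not called in any of the 3 comparisons, and its siGOLM1-2 libraries ran from 539 to 1121 CPM. GSTM3, a glutathione S-transferase with paralogs, was at 7.18 to 14.3 CPM over all libraries and was not called in any of the 3 comparisons either. UGDH, which makes the UDP-glucuronate used in conjugation, stood at 576 to 705 CPM over all libraries. It overlapped the control with siGOLM1-1 (0.06, adjusted p = 0.44) and was at -0.11 with siGOLM1-2 (adjusted p = 0.17). Between the siRNAs UGDH differed by 0.18 (SE 0.06, adjusted p = 0.032), a call lost without siGOLM1-1 replicate 2 or 3 or siGOLM1-2 replicate 1 or 3 (0.16 to 0.17) and at 0.04 (adjusted p = 0.53) with library totals alone.

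OSGIN1, an oxidative stress-induced growth inhibitor known as an NRF2 target, held 37.0, 43.4, 42.5 and 40.05 CPM in the control, 67.6, 107, 111 and 133 with siGOLM1-1 and 38.0, 36.2, 38.9 and 43.9 with siGOLM1-2. It was 2.57-fold higher with siGOLM1-1 (adjusted p = 1.2e-05) and overlapped the control with siGOLM1-2 (-0.05, SE 0.15, adjusted p = 0.80). Between the siRNAs it differed by 1.42 (SE 0.16, adjusted p = 5.4e-06).

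The counts of calls for siGOLM1-1 moved little with the control pair. Against control replicates 1 and 2 alone, 30 of the 40 genes were called higher and 2 lower with siGOLM1-1, and against control replicates 3 and 4 alone 29 were higher and 4 lower. The same counts for siGOLM1-2 were 11 and 7, and 12 and 10. Over all genes with siGOLM1-1, 3674 of 18198 were higher and 3580 lower against replicates 1 and 2. Against replicates 3 and 4, 3781 of 18206 were higher and 3570 lower. With siGOLM1-2 the counts over all genes were 3306 and 3261, and 3652 and 3458. From control replicates 1 and 2 to replicates 3 and 4, the mean CPM of MAFK changed 0.54-fold, that of ALDH3A1 0.59-fold, that of MAFF 0.60-fold, that of SLC7A11 0.61-fold and that of NFE2L2 0.68-fold. GPX4 changed 1.46-fold, PRDX6 1.44-fold and AKR1C2 1.39-fold in the same contrast, which was not tested. HMOX1 changed 1.16-fold between the control pairs.

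**Figure D4:**
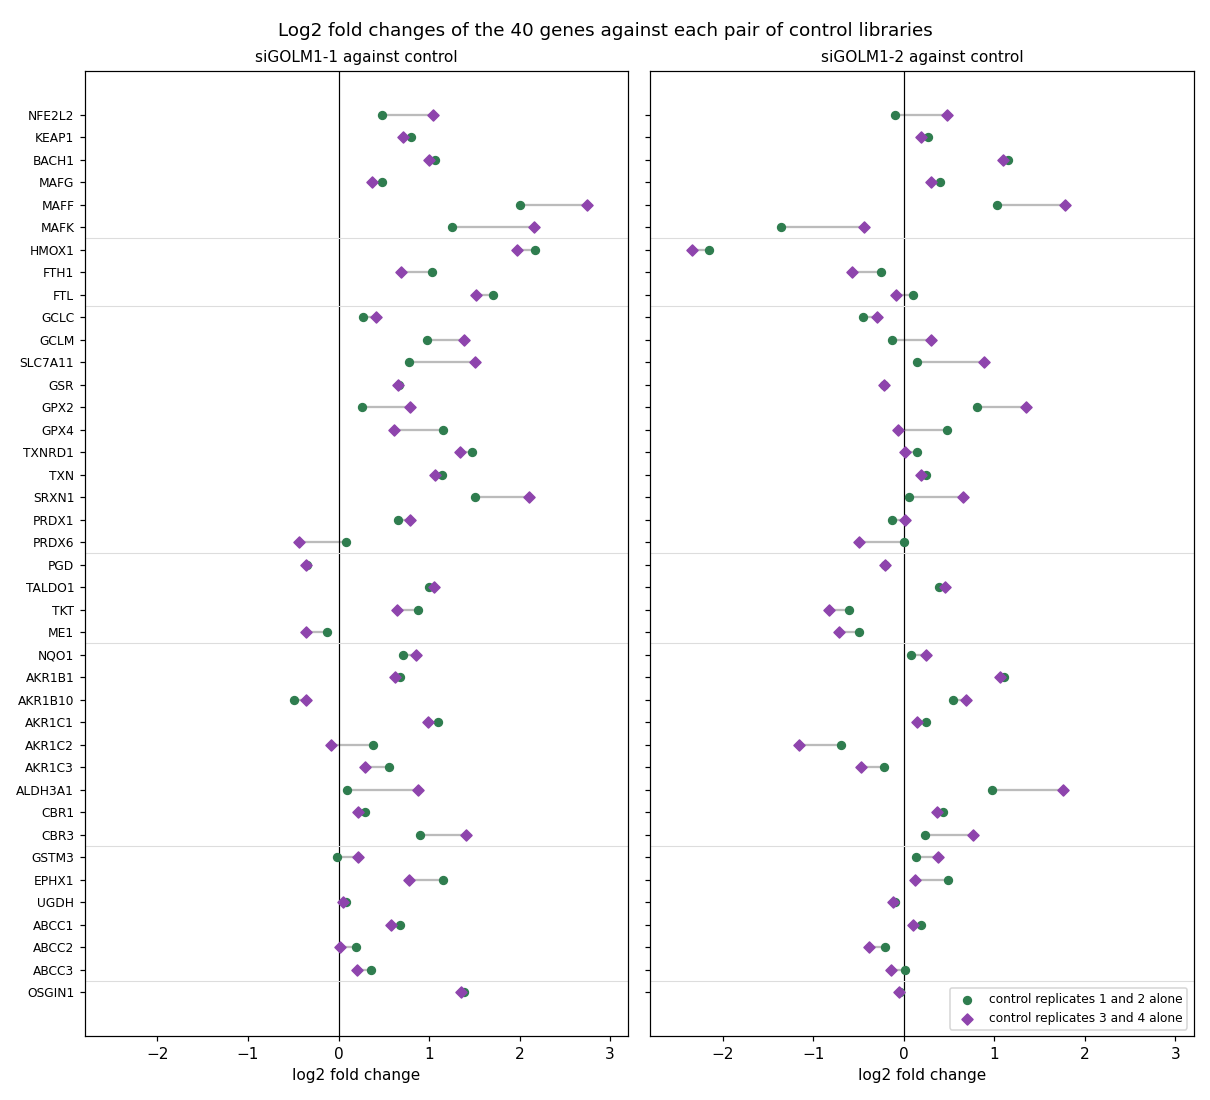
Log2 fold change of each of the 40 genes (rows, by branch) for each siRNA (panels) when only control replicates 1 and 2 (circles) or only control replicates 3 and 4 (diamonds) serve as the control, joined by a line for each gene. Lines are short for HMOX1, BACH1, TALDO1 and AKR1B10 and long for MAFK, MAFF, SLC7A11 and ALDH3A1; for SLC7A11 with siGOLM1-2 the values are 0.14 and 0.88.

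A wider list of 86 other genes of these branches, of which 83 were tested, had smaller median changes. With siGOLM1-1, 38 of the 83 were called higher, 11 lower and 34 neither (median 0.20), and with siGOLM1-2 the counts were 30, 20 and 33 (median 0.08). Over all genes, 23.7% were higher and 23.8% lower with siGOLM1-1, and 21.8% and 23.2% with siGOLM1-2. These shares are also the background of the branch counts below. Between the siRNAs 28 (33.7%) were higher with siGOLM1-1 and 19 (22.9%) lower (median 0.10), near the 27.9% and 26.5% of all genes. Of these genes, the 3 with the smallest p in each branch are named, whatever their direction. FBXW11 is added beside BTRC as a related gene that went the other way.

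Among the other heme and iron genes, 8 of 12 were called higher and none lower with siGOLM1-1, and 6 higher and 3 lower with siGOLM1-2. SLC40A1, ferroportin, the iron exporter, held 26.5, 25.6, 36.1 and 35.4 CPM in the control, 105, 142, 114 and 133 with siGOLM1-1 and 39.1, 41.6, 42.2 and 36.2 with siGOLM1-2. It rose by 2.00 (SE 0.13, adjusted p = 5.6e-08) with siGOLM1-1 and by 0.37 (SE 0.13, adjusted p = 0.029) with siGOLM1-2, the latter lost without control replicate 1 or 2 or siGOLM1-2 replicate 1, 2 or 3 (0.30 to 0.37). With control replicates 3 and 4 as the only controls that value was 0.17, and with replicates 1 and 2 it was 0.61. ALAS1, the rate-limiting enzyme of heme synthesis outside red cells, was at -0.02 (adjusted p = 0.84) with siGOLM1-1 and fell by 0.57 (SE 0.07, adjusted p = 2.0e-05) with siGOLM1-2. SLC48A1, a heme transporter, rose by 0.56 (SE 0.09, adjusted p = 0.00014) with siGOLM1-1. With siGOLM1-2 it was at 0.24 (adjusted p = 0.038), lost without control replicate 1, 3 or 4 or siGOLM1-2 replicate 1, 2 or 4 (0.18 to 0.25).

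Among the other glutathione and thioredoxin genes, 7 of 20 were called higher and 4 lower with siGOLM1-1, and 8 higher and 4 lower with siGOLM1-2. GGCT, which cleaves gamma-glutamyl dipeptides, held 76.2, 73.5, 72.7 and 74.2 CPM in the control, 21.2, 19.9, 19.7 and 17.1 with siGOLM1-1 and 65.9, 73.8, 67.6 and 71.0 with siGOLM1-2. Its siGOLM1-1 libraries lay far below all others, 3.80-fold below the control (adjusted p = 6.7e-10), and its siGOLM1-2 value was -0.09 (adjusted p = 0.31). TXNIP, which binds and inhibits thioredoxin, rose by 1.82 (SE 0.21, adjusted p = 1.0e-05) with siGOLM1-1 and 2.96 (SE 0.21, adjusted p = 2.6e-07) with siGOLM1-2, from 0.701 to 1.18 CPM in the control. CHAC1, which degrades glutathione and is known as a stress-induced gene, rose by 1.75 (SE 0.18, adjusted p = 3.9e-06) and 0.76 (SE 0.18, adjusted p = 0.0035).

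Of the other NADPH supply genes, 6 of 11 were called higher and 1 lower with siGOLM1-1, and 3 higher and 4 lower with siGOLM1-2. ME2, the mitochondrial malic enzyme, fell with both, by 1.04 (SE 0.08, adjusted p = 2.3e-07) and 0.46 (SE 0.08, adjusted p = 0.00033). RPE, ribulose-phosphate epimerase of the pentose phosphate pathway, rose by 0.33 (SE 0.06, adjusted p = 0.00053) with siGOLM1-1 and fell by 0.64 (SE 0.06, adjusted p = 2.6e-06) with siGOLM1-2. IDH1, which makes NADPH in the cytosol, fell by 0.66 (SE 0.08, adjusted p = 1.7e-05) with siGOLM1-2. Its siGOLM1-1 value was 0.24 (adjusted p = 0.020), lost without control replicate 1 or siGOLM1-1 replicate 2 (0.21 in each) and at 0.16 against control replicates 3 and 4 alone.

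Of the other genes listed under quinone and carbonyl reduction, 7 of 11 were called higher and 1 lower with siGOLM1-1, and 3 higher and 3 lower with siGOLM1-2. CYP4F11, a cytochrome P450, rose by 1.11 (SE 0.09, adjusted p = 6.1e-07) and 1.64 (SE 0.09, adjusted p = 5.1e-08). AKR1C4, a further paralog of the AKR1C cluster, rose by 1.71 (SE 0.20, adjusted p = 1.2e-05) and 1.31 (SE 0.20, adjusted p = 0.00015) from 0.866 to 1.29 CPM in the control. ALDH1A1, a retinaldehyde dehydrogenase, fell by 0.77 (SE 0.09, adjusted p = 1.6e-05) with siGOLM1-2. Its siGOLM1-1 value of 0.24 (adjusted p = 0.042) was lost when any 1 library was left out, other than siGOLM1-1 replicate 3 or siGOLM1-2 replicate 4 (0.22 to 0.25).

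Of the other conjugation and export genes, 5 of 15 were called higher and 2 lower with siGOLM1-1, and 4 each with siGOLM1-2. ABCG2, a drug efflux pump, rose by 0.68 (SE 0.10, adjusted p = 7.5e-05) with siGOLM1-1, and its siGOLM1-2 value was 0.17 (adjusted p = 0.18). With library totals alone the latter was 0.245 and was called (adjusted p = 0.043). GSTA4, a transferase for lipid aldehydes, was at -0.09 (adjusted p = 0.43) with siGOLM1-1 and fell by 0.85 (SE 0.09, adjusted p = 7.8e-06) with siGOLM1-2. MGST1, a microsomal transferase, fell by 0.67 (SE 0.11, adjusted p = 0.00035) with siGOLM1-2, and by 0.41 against control replicates 1 and 2 alone. Its siGOLM1-1 value of -0.32 (adjusted p = 0.031) was lost without control replicate 3 or 4 or siGOLM1-1 replicate 1, 3 or 4 (-0.33 to -0.21). With control replicates 1 and 2 as the only controls it was -0.06, and with replicates 3 and 4 it was -0.53.

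Of the other regulators, 5 of 14 were called higher and 3 lower with siGOLM1-1, and 6 higher and 2 lower with siGOLM1-2. SESN2, a stress-induced sestrin that promotes KEAP1 degradation, held 23.4, 24.9, 24.5 and 24.4 CPM in the control, 54.4, 57.8, 56.0 and 62.1 with siGOLM1-1 and 52.3, 51.9, 46.4 and 59.1 with siGOLM1-2. It rose by 1.25 (SE 0.08, adjusted p = 4.1e-08) and 1.11 (SE 0.08, adjusted p = 2.2e-07), well clear of the control in every library. BACH2, the lymphoid relative of BACH1, stood at 0.141 to 0.265 CPM in the control and 1.47 to 1.58 with siGOLM1-1, a rise of 3.04 (SE 0.23, adjusted p = 2.1e-07). With siGOLM1-2 BACH2 rose by 0.88 (SE 0.25, adjusted p = 0.011), which was 0.65 (adjusted p = 0.13) against control replicates 1 and 2 alone. BTRC, a ubiquitin ligase subunit that targets NRF2 independently of KEAP1, rose by 0.65 (SE 0.07, adjusted p = 4.4e-06) and 0.46 (SE 0.07, adjusted p = 9.6e-05). FBXW11, a related subunit on the same list, went the other way with both, without overlap with the control. Its log2 fold changes were -0.84 (SE 0.09, adjusted p = 5.9e-06) with siGOLM1-1 and -0.84 (SE 0.09, adjusted p = 7.9e-06) with siGOLM1-2.

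The 2 comparisons with control use the same 4 control libraries, so their values are given side by side and not as independent observations. The authors' deposited table gives 30 of the 40 genes higher and 3 lower with siGOLM1-1, with the call of all 40 the same as here. For siGOLM1-2 the authors' deposited table gives 12 higher and 11 lower, the same call for 39 of 40, with CBR3 called higher (log2 fold change 0.49, adjusted p = 0.042). The largest difference between a log2 fold change in the authors' deposited table and the value here was 0.018.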

How the data were processed

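The deposited table of counts per gene holds whole-number counts for 12 libraries and 57773 genes. Per the labels' protocols, libraries came from a TruSeq Stranded mRNA kit and were sequenced paired-end; per the submitters' processing notes, bcl2fastq 2.20, STAR 2.7.3, DESeq2 1.24.0 and hg19 were used. The counter, annotation and strand setting are not given in the sources used here, so reads of overlapping or antisense genes may be mixed. The authors' tables of log2 fold changes and p-values (adjusted) were compared with the values computed here.

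Counts were tested with edgeR 4.0.16 (limma 3.58.1, R 4.3.3): filterByExpr, TMM factors, a robust quasi-likelihood fit of all 12 libraries in 3 groups (9 residual degrees of freedom, common biological coefficient of variation 0.146) and Benjamini-Hochberg adjustment over 17532 genes. Called means an adjusted p under 0.05. Fold changes are edgeR's log2 fold changes, and the SE is the log2 fold change divided by the square root of F. CPM were scaled by library total and TMM factor. The procedure was tested on simulated data. Depth was 41617042 to 71344718 counts per library. Of the table's genes, 24653 had no count.

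Genes named are all 40 members, GOLM1, the marker genes as lists and, per branch, the 3 other pathway genes called with at least 1 siRNA that had the smallest p. FBXW11 was added beside BTRC. The members, lists and tests were chosen with earlier results of these data known. The glucocorticoid-induced list had separated the control libraries in an earlier analysis of them, so it is no independent evidence of that split. Correlations between the deviations of same-numbered libraries ran from -0.20 to 0.35 over 12 pairs, and 3 were over 0.1, which cannot exclude a pairing. Alternatives included DESeq2 1.42.0, other scaling and filters, a replicate block, each control pair alone and each library left out.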

Additional observations from a re-analysis of the deposited data

Results flagged for a closer look

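For the 40 genes and GOLM1, each group of 4 libraries was searched for a library far from the other 3. Of 123 gene and group combinations, 12 had one whose gap to its nearest neighbour took more of the group's range than Dixon's critical value for 4 samples, where chance gives about 1 in 20; 7 of the 12 were siGOLM1-2 replicate 4.

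In siGOLM1-2 replicate 4, KEAP1 stood at 87.7 CPM against 81.2 to 82.0 in the other 3, MAFF at 10.5 against 4.34 to 5.13, FTL at 5700 against 4318 to 4499.9 and PRDX6 at 221.6 against 177 to 182. In the same library AKR1C1 stood at 676.6 CPM against 791 to 811, AKR1C2 at 1358 against 1737 to 1787 and ABCC1 at 372.2 against 506 to 518. In siGOLM1-2 replicate 3, CBR1 stood at 144.5 CPM, against 159.6 to 161 in the others. With siGOLM1-1, AKR1B1 stood at 2808 CPM in replicate 1, against 4068 to 4309, and GOLM1 at 37.48 in replicate 4, against 38.7 to 38.9. In the control, MAFG stood at 75.35 CPM in replicate 1, against 88.1 to 88.7, and ABCC1 at 477.4 in replicate 4, against 415 to 420.1.

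Without siGOLM1-2 replicate 4, 12 of the 40 genes were called higher and 11 lower with siGOLM1-2, against 11 and 11 with it, and their median log2 fold change was 0.0905, against 0.15. Of all 17766 genes tested without that library, 3497 were higher and 3790 lower, against 3814 and 4071 of 17532 with it.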

How the results depend on the processing

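Each of the 40 genes was recomputed in 3 comparisons under 21 alternatives. Of 2520 values, 2436 kept their side of the threshold, 32 of them with the other sign though called in neither fit; 54 lost a call, 30 gained one and none reversed a call.

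For siGOLM1-1, leaving out 1 library gave 29 to 31 members higher and 3 lower (median 0.71 to 0.78). For siGOLM1-2 it gave 10 to 12 higher and 9 to 11 lower, with a median of 0.0905 to 0.144. In the direct comparison it gave 28 to 29 higher and 4 to 5 lower. Over all genes tested (17723 to 17822), leaving out 1 library gave 3708 to 4344 higher and 3737 to 4356 lower for siGOLM1-1. The counts over all genes were 3402 to 4043 and 3490 to 4286 for siGOLM1-2, and 4399 to 4916 and 4231 to 4724 in the direct comparison. The siGOLM1-2 median, 0.15, was 0.16 with RLE factors, 0.16 with DESeq2, 0.22 with library totals alone, 0.0911 against control replicates 1 and 2 alone and 0.11 against control replicates 3 and 4 alone. Against control replicates 1 and 2 alone, 7 members and 3261 of all genes were lower with siGOLM1-2, against 11 and 4071. Against control replicates 3 and 4 alone, 19 other pathway genes and 3652 of all genes were higher with siGOLM1-2, against 30 and 3814. Fewer control libraries entered. With library totals alone the direct median was 0.52, and the median of all genes moved from 0.01 to -0.12, with 3564 genes higher and 5957 lower.

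The labels name no pairing of same-numbered libraries, and the correlations between them do not settle whether there was one. The replicate block gave 31 higher and 3 lower members for siGOLM1-1, 11 and 10 for siGOLM1-2 and 29 and 4 between the siRNAs. Of all 17532 genes it gave 4182 and 4207, 3885 and 4044, and 4882 and 4731 in the same order. With the block, ALDH3A1 was called higher with siGOLM1-1 (0.45, adjusted p = 0.040). Low counts limit MAFF, SRXN1, CBR3, BACH2, TXNIP and AKR1C4.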
